A study of Homo sapiens with 6 samples.

Results

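The comparison described here is between 2 of the 6 arrays of the series, A375 cells that received 10 µM vemurafenib together with 100 nM AT9283 for 6 h and A375 cells that received 10 µM vemurafenib alone for 6 h. It was chosen by treatment, not by any measured value, and asks which transcripts differ when AT9283 is added to vemurafenib. A375 is an established human melanoma line with a mutated BRAF gene, and both arrays of the comparison carry vemurafenib, so the only labelled difference between them is AT9283. The other 4 arrays hold DMSO at 6 h, 100 nM AT9283 at 6 h, DMSO at 16 h and 10 µM vemurafenib at 16 h. The combination has no 16 h array here. Each condition was measured once, so no difference below has a replicate check or a p-value, and the number of arrays limits the precision. The labels name no separate cultures. In RNA from a whole culture, fewer cells of a type and less RNA per cell cannot be told apart. The median probe set intensity was 19.79 to 21.29 per array, and 44.7% to 46.1% of genes lay at the floor defined below on each array.

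Vemurafenib blocks mutant BRAF and with it the ERK cascade that these cells depend on. AT9283 is an inhibitor of several protein kinases, among them the Aurora kinases, which act at mitosis, and JAK2, which signals to STAT transcription factors. ATF4 is a transcription factor made when eIF2α is phosphorylated by one of its stress kinases, and it drives genes of amino acid synthesis, amino acid uptake and stress control. ERK signalling also feeds immediate early transcription factors such as JUN and the KLF family, while secreted proteins such as follistatin, the activins and the CCN family link a cell to its matrix and its neighbours.

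Levels are given as log2 of the deposited probe set intensity, and a difference is the combination array minus the vemurafenib array on the log2 scale. A gene was read as lower or higher by a rule of size. The larger of both arrays had to lie at log2 6 or above, called the floor, and the difference had to reach 2-fold (1 on the log2 scale) or, for the wider rule, 1.5-fold. At the floor lay 8999 of 19676 genes, with a median difference of 0.03 and an SD across genes of 0.20. Over the same rule AT9283 alone against DMSO, which shares no array with this comparison, had an SD of 0.13, and DMSO at 16 h against DMSO at 6 h had 0.24.

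The differences were lopsided. With AT9283 added, 29 genes (0.322% of those at the floor) were at least 2-fold lower and 0 (0%) were at least 2-fold higher. By the 1.5-fold rule 86 genes (0.956%) were lower and 22 (0.244%) were higher. The combination value lay below the floor for 11 of the 29 and 20 of the 86, so the size of those differences rests on a value near background. AT9283 without vemurafenib put 6 genes (0.0671%) at 1.5-fold lower and 9 (0.101%) at 1.5-fold higher, and at 2-fold 0 (0%) lower and 2 (0.0224%) higher. The DMSO arrays at 16 h and 6 h, which differ in time, put 102 (1.13%) lower and 139 (1.54%) higher by the 1.5-fold rule. At 2-fold they put 8 (0.0883%) lower and 17 (0.188%) higher. By the 1.5-fold rule the comparison of interest thus gave fewer genes than these DMSO arrays, and at 2-fold it gave more on the lower side.

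**Figure D1:**
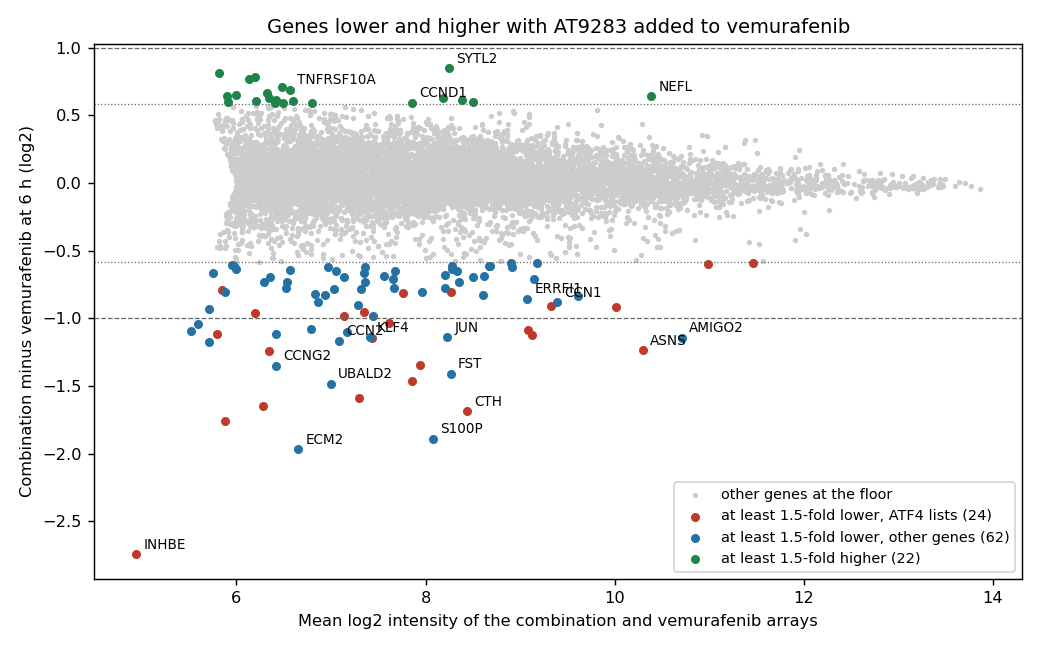
Difference between the combination and vemurafenib arrays (log2, vertical axis) against their mean log2 intensity (horizontal axis) for 8999 genes at the floor; red points are lower genes on the ATF4 lists, blue other lower genes and green higher genes, and dashed lines mark 2-fold and dotted lines 1.5-fold. The 29 genes past 2-fold all lie on the lower side, 15 of them outside the ATF4 lists, and the 22 higher genes reach no further than SYTL2 at 0.85.

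The edges of the rule were narrow. SLFN5 (-1.03) was the last gene inside 2-fold and CBS (-0.98) the first outside it, PMAIP1 (-0.59) and SLITRK6 (-0.58) stood on either side of the lower 1.5-fold edge, and CRISPLD1 (0.59) and MCC (0.58) on either side of the higher one. Other probe sets of a gene on the same arrays repeat the measurement but not the experiment. Such probe sets were at the floor for 37 of the 86 lower genes, and their median was taken for each gene. This median pointed the same way in 37 of 37 and passed 1.5-fold in 28. Of the 22 higher genes 11 had such probe sets, with the median above 0 in all 11 and past 1.5-fold in 4.

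The A375 label was set against lineage markers. Of 15 measured melanocyte lineage markers 9 lay at the floor on both arrays, SOX10 (8.32 under vemurafenib, 8.42 in the combination) and MITF (9.66 and 9.10) among them, while the pigment genes MLANA, TYR, TYRP1 and PMEL and the nerve and melanocyte marker S100B were below it. Of 18 measured markers of other lineages 4 or 5 lay at the floor, the keratins KRT8, KRT14 and KRT18 and the collagen gene COL1A1 on both arrays and PDGFRB on the vemurafenib array only. EPCAM, CDH1, PTPRC and CDH5 were at log2 3.13 or lower on both arrays. None of the lineage markers at the floor passed the 1.5-fold rule. Among 10 housekeeping genes at the floor the differences ran from -0.09 for GUSB to 0.32 for the transferrin receptor TFRC.

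Promoter stretches of some of the lower genes are shown here because they hold the sequence elements of the transcription factors named above. They come from the RefSeq promoter table of build GRCh38.p14, are written 5′ to 3′ on the strand of the gene, and end before the start. Capitals mark the match, which is TGATGNAA on either strand (the C/EBP-ATF response element that ATF4 binds) in the first 4 and TGANTCA (the AP-1 element that JUN dimers bind) in the last 3. They lie at chr7:97872449-97872496 (ASNS, minus strand), chr15:40953242-40953289 (CHAC1, plus), chr1:212565196-212565243 (ATF3, plus), chr4:6693735-6693782 (S100P, plus), chr5:53480449-53480495 (FST, plus), chr12:47080156-47080201 (AMIGO2, minus) and chr12:57520729-57520764 (DDIT3, minus).
ASNS: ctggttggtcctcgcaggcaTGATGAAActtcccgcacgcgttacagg
CHAC1: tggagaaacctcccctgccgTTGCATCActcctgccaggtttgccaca
ATF3: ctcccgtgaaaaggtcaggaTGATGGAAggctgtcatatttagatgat
S100P: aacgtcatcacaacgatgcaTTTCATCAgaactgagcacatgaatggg
FST: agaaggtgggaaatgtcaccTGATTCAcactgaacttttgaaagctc
AMIGO2: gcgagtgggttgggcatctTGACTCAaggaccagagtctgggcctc
DDIT3: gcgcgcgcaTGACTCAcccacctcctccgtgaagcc

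These matches were counted over the whole window of each promoter in the table. The C/EBP-ATF element was present in 4 of 23 promoters matched among the 29 genes at least 2-fold lower (17.4%), in 7 of 69 among the 86 lower genes (10.1%), in 0 of 11 among the higher genes, and in 1.73% of 7552 promoters of genes at the floor. It occurred in 3 of 17 promoters of lower genes on the ATF4 lists (17.6%) and in 4 of 52 of the other lower genes (7.69%), S100P among them. The AP-1 element occurred in 5 of the 69 (7.25%) against 4.25% of genes at the floor, and the STAT element TTCNNNGAA, searched on both strands, in 2 of 69 (2.90%) against 6.30%. Over all 27305 promoters the shares were 3.67% for the C/EBP-ATF element, 7.76% for AP-1 and 7.88% for STAT. The AP-1 share of the lower genes was thus above that of genes at the floor but not above that of all promoters. A match says only that these letters stand in the window, and was not tested as a site.

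The ATF4 lists supplied 24 of the 86 lower genes and 14 of the 29. They held 57 genes at the floor with a median of -0.47, and 55 of the 57 were below 0, against 42.0% of all genes at the floor. These lists were assembled with earlier results of these arrays known, so their count is a description and no independent evidence. ATF3, a stress-induced repressor of the same family as ATF4, was at 6.49 in DMSO, 6.18 with AT9283, 8.62 with vemurafenib and 7.27 in the combination, which is 2.54-fold below vemurafenib. TRIB3, a pseudokinase induced by ATF4, stood at 10.48 under vemurafenib and 9.56 in the combination, its DMSO level of 9.56. The ATF4-partner CEBPG (-0.81), the glycoprotein hormone gene STC2 (-0.96), the cytokine GDF15 (-1.12) and the neutral amino acid transporter SLC38A2 (-0.59) were also lower, and STC2 (5.72) and GDF15 (5.24) ended below the floor. The other list members past the rule were INHBE, RAB39B, CTH, VLDLR, NUPR1, CHAC1, SLC1A4, ASNS, JDP2, DDIT3, SLC7A11, SLFN5, CBS, ALDH1L2, PSPH, SESN2, SLC43A1 and CEBPB, between -2.74 and -0.59. The lowest of them, INHBE, ended below the floor at 3.57. GDF15 rests on 1 probe set, since its 2 others lay below the floor with differences of -0.19 and 0.12. By role, 15 of 22 stress regulators, 5 of 13 synthesis genes, 4 of 10 transporters and 0 of 12 tRNA charging genes were at least 1.5-fold lower and 0 were higher. Among all genes at the floor 0.956% were lower and 0.244% higher.

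DDIT4 and PCK2 sit on rows of the table where the 6 h values had slipped to a neighbouring identifier, and were left out of the counts. With the values put back, PCK2, the mitochondrial enzyme that makes phosphoenolpyruvate, was at 6.33 in DMSO, 6.26 with AT9283, 8.40 with vemurafenib and 6.97 in the combination, a difference of -1.42. DDIT4, an inhibitor of mTORC1, was at 10.28, 10.37, 11.56 and 10.68 in the same order, a difference of -0.88. PCK2 was named after its value was seen.

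The messages for the machinery that raises ATF4 differed little. The eIF2α kinases EIF2AK1, EIF2AK2, EIF2AK3 and EIF2AK4 had differences of -0.06, 0.05, -0.02 and 0.01. Of 17 genes of eIF2α kinases, phosphatase and exchange factor at the floor 0 passed the 1.5-fold rule, with a median of 0.05. Over all genes at the floor 0.956% were lower and 0.244% higher. The lowest of the 17 was PPP1R15A (-0.53), the stress-induced phosphatase subunit GADD34. ATF4 itself differed by -0.38.

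Outside the ATF4 lists 62 genes were at least 1.5-fold lower, and they fell into 3 groups by what vemurafenib did at 16 h, on arrays that this comparison does not use. Absence from the lists does not show that a gene is free of ATF4 control, which was not tested. At 16 h, 11 of the 62 were at least 2-fold lower with vemurafenib than with DMSO, 19 were at least 2-fold higher and 32 were neither. Among all genes at the floor 5.21% were 2-fold lower and 3.43% 2-fold higher at 16 h.

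The first group held genes that were at least 2-fold lower with vemurafenib at 16 h and lower in the combination than with vemurafenib at 6 h. They were FST, CCN2, AMIGO2, KLF4, CCN1, ERRFI1, LRATD2, INHBA, KLF6, IGFBP3 and PMAIP1, with differences between -1.41 and -0.59. For all 11 the combination had the lowest value among the arrays at 6 h. The rule had already placed it below vemurafenib, and so below DMSO too wherever vemurafenib was below DMSO. At 6 h vemurafenib alone was below DMSO for 8 of them, and KLF4, IGFBP3 and PMAIP1 were 0.09, 0.15 and 0.18 above it. With AT9283 alone 9 of the 11 were below DMSO, with a median of -0.26.

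FST encodes follistatin, the secreted protein that binds and blocks activins. Its log2 level was 10.71 in DMSO, 10.02 with AT9283, 8.97 with vemurafenib and 7.56 in the combination, and at 16 h it was 10.06 in DMSO and 6.60 with vemurafenib. The combination thus lay 2.66-fold below vemurafenib at 6 h, and AT9283 alone lay 0.69 below DMSO on the log2 scale. A second probe set at the floor gave -2.17 for the combination against vemurafenib.

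INHBA, the activin A subunit that follistatin binds, moved the same way at a smaller size. It was at 10.27 in DMSO, 10.03 with AT9283, 8.72 with vemurafenib and 7.99 in the combination, a difference of -0.73, with -0.86 on its other probe set at the floor. Of 16 genes of the activin and TGF-β list at the floor 5 were at least 1.5-fold lower and 0 higher, where 0.956% and 0.244% of all genes at the floor were. The list median was -0.15, and -0.30 without shared or cross-hybridizing probe sets. The others were INHBE, which is also on the ATF4 lists, the SMAD corepressor TGIF1 (-0.90) and the ligand TGFB2 (-0.67), whose combination value (5.42) lay below the floor. The receptors TGFBR1 (0.04), TGFBR2 (0.23) and ACVR1B (-0.02) and the feedback gene PMEPA1 (0.44) did not pass the rule.

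CCN2 and CCN1 encode matricellular proteins of the CCN family, well known as targets of the YAP and TEAD pathway. CCN2 was at 9.44 in DMSO, 9.03 with AT9283, 7.66 with vemurafenib and 6.50 in the combination, 2.24-fold below vemurafenib. CCN1 was at 10.30, 10.01, 9.83 and 8.95 in the same order, a difference of -0.88 that a second probe set repeated at -0.86. Of 18 genes of that pathway at the floor 3 were 1.5-fold lower, TGFB2 beside the CCN genes, where 0.956% of all genes at the floor were. The median of the 18 was -0.05, with 11 below 0 and 6 above. AXL (-0.07), AMOTL1 (0.13), LATS2 (0.06), YAP1 (0.07) and TEAD1 (-0.02) all lay near 0, and AMOTL2 was at -0.42.

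Some of the lower genes encode transcription factors that respond early to growth signals. JUN, the core AP-1 subunit, was at 9.84 in DMSO, 9.68 with AT9283, 8.80 with vemurafenib and 7.66 in the combination, a difference of -1.14, and its other probe set at the floor gave -1.10. Of 2 more below the floor, the one whose identifier does not mark shared sequence gave -0.56. KLF4, a Krüppel-like factor of differentiation, was flat over the other arrays at 6 h, at 7.89 in DMSO, 7.95 with AT9283 and 7.98 with vemurafenib, and 6.84 in the combination. KLF6 was at 8.60 in DMSO, 8.34 with AT9283 and 7.73 with vemurafenib, and the combination array was the lowest with a further difference of -0.73. Its 3 other probe sets at the floor gave -0.64, -0.56 and -0.51, the last 2 short of the 1.5-fold rule.

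Of the 15 immediate early genes at the floor 5 were at least 1.5-fold lower and 0 higher, where 0.956% and 0.244% of all genes at the floor were. Their median was -0.35, and -0.14 without shared or cross-hybridizing probe sets. Beside KLF4 and KLF6 they were the antiproliferative gene BTG1 (-0.83), GADD45B (-0.83), a stress activator of p38 and JNK signalling, and the mRNA decay factor ZFP36L1 (-0.65). KLF2 (-0.57) and IER2 (-0.42) lay under the rule, while KLF10 (0.05), SRF (0.10), IER3 (0.16) and ZFP36L2 (0.18) were above 0. Of 9 AP-1 and MAF genes at the floor only JUN passed, against the same 0.956% lower among all genes at the floor. JUND was at -0.47, JUNB at -0.31 and FOSL1 at 0.40. FOS lay below the floor on both arrays.

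Other members of this first group act at the cell surface or on growth signals. ERRFI1, the feedback inhibitor MIG6 that binds the EGF receptor, was at 10.65 in DMSO, 10.35 with AT9283, 9.50 with vemurafenib and 8.65 in the combination. AMIGO2, an adhesion protein, was at 11.92, 11.78, 11.28 and 10.14 in that order, one of the most strongly expressed genes past the 2-fold rule, at 2.21-fold. IGFBP3, which binds insulin-like growth factors, was at 7.86, 7.55, 8.01 and 7.30. PMAIP1, the death-promoting BCL2 family member NOXA, was at 9.30, 9.36, 9.47 and 8.88. It was the only 1 of 10 BCL2 family genes at the floor past the rule, where 0.956% of all genes at the floor were lower.

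**Figure D2:**
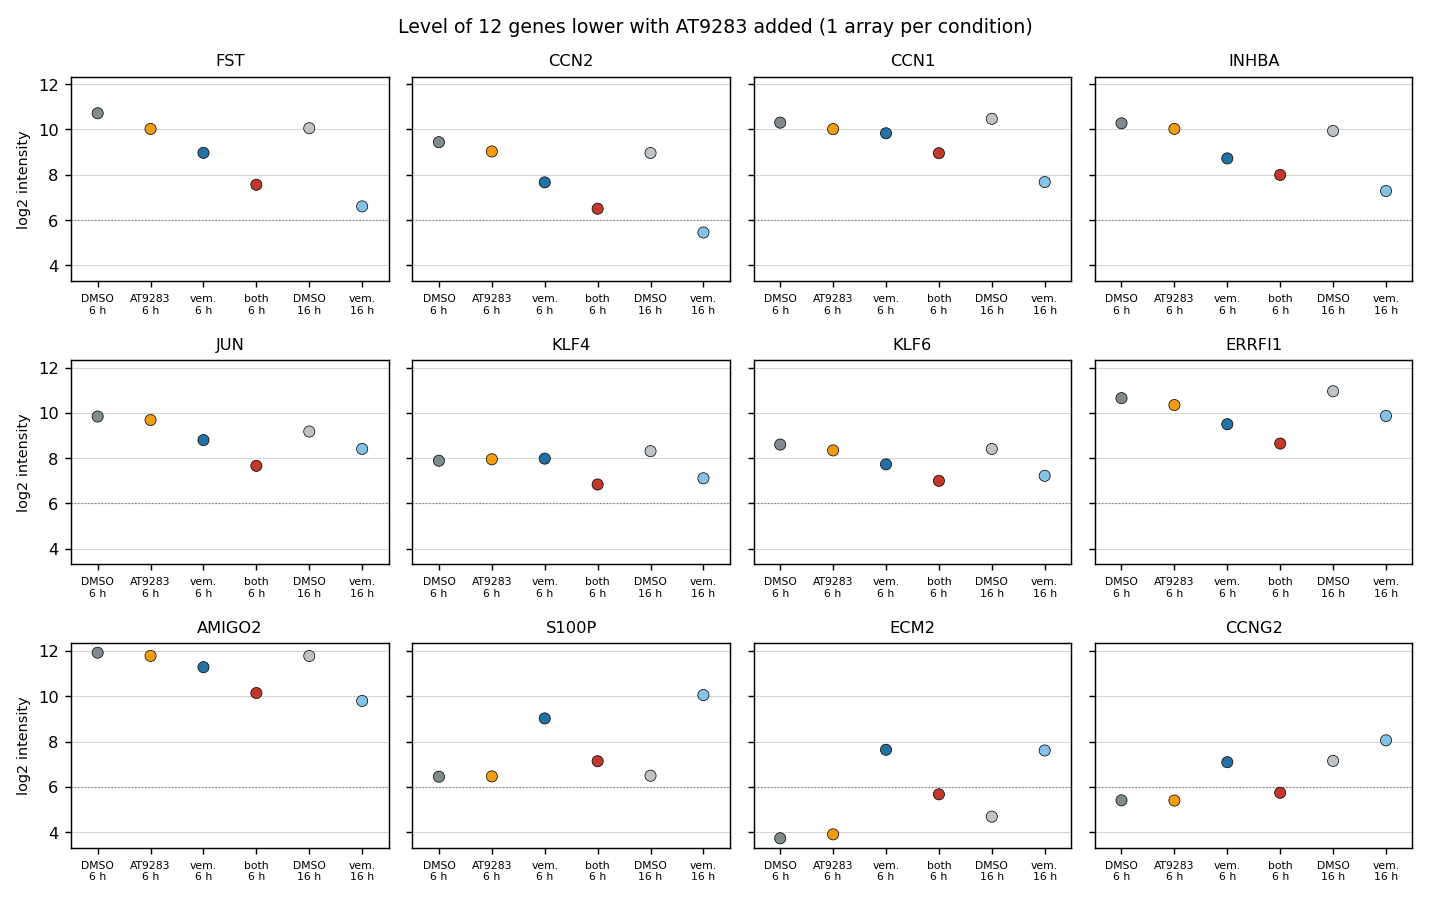
Log2 intensity of 12 genes lower with AT9283 added, on the 6 arrays (1 point per array; the dotted line is the floor of log2 6). FST, CCN2, CCN1, INHBA, JUN, KLF6, ERRFI1 and AMIGO2 step down from DMSO to vemurafenib to both drugs at 6 h, KLF4 drops on the combination array at 6 h, and S100P, ECM2 and CCNG2 are high with vemurafenib and nearer to DMSO with both.

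The second group held 19 genes outside the ATF4 lists that vemurafenib raised at 16 h. In 18 of the 19 the combination lay between DMSO and vemurafenib at 6 h, where its place below vemurafenib was set by the rule. S100P, a calcium-binding protein whose promoter stretch is shown above, was at 6.45 in DMSO, 6.46 with AT9283, 9.02 with vemurafenib and 7.13 in the combination, 3.71-fold below vemurafenib, and at 16 h it was at 6.49 and 10.05. ECM2, a matrix protein, was at 3.73, 3.90, 7.64 and 5.67, so its 3.91-fold difference ends below the floor. TSC22D3, the glucocorticoid-induced leucine zipper GILZ, was at 5.35, 5.15, 6.97 and 5.86 (-1.12), again ending below the floor.

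Several of this second group restrain the cell cycle or act in nuclear signalling. HBP1, a repressor of cell cycle genes, was at 7.02 in DMSO, 6.69 with AT9283, 7.93 with vemurafenib and 6.95 in the combination. PNRC1, a nuclear receptor coactivator, was at 6.31, 5.57, 7.30 and 6.42, and its AT9283 difference without vemurafenib (-0.74) was the largest fall among all 86 lower genes. ID2, an inhibitor of helix-loop-helix factors, was at 6.01, 6.23, 8.99 and 8.38, so most of its vemurafenib level was kept. Of 9 genes of the ID and BMP list at the floor all 9 were below 0, against 42.0% of all genes at the floor, with a median of -0.30. ID2 (-0.61) was the 1 past the rule, where 0.956% of all genes at the floor were lower. ID1 and ID3 were at -0.44 and -0.24.

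Other members of the second group were surface and signalling proteins. F2RL2, a protease-activated receptor, was at 7.19 in DMSO, 6.99 with AT9283, 8.37 with vemurafenib and 7.56 in the combination. FYN, a SRC family kinase, was at 6.77, 6.95, 7.67 and 7.05, and IQGAP2, a scaffold of the cytoskeleton, was at 5.43, 5.31, 6.91 and 6.14. BEX2, SAMD11, PLAC8, SIX5, SMIM14, LURAP1L, ALPP, ATOSA, NIBAN1 and LINC00525 completed the group. Over the 19 genes the median difference was -0.77. With AT9283 alone 14 of 19 were below DMSO, with the floor not applied to those arrays.

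The third group, 32 genes without a 2-fold difference at 16 h, held several of the largest falls. UBALD2, a UBA-like domain gene of unsettled role, was at 7.93 in DMSO, 7.26 with AT9283, 7.74 with vemurafenib and 6.26 in the combination, a 2.79-fold difference with -0.99 on its other probe set. CCNG2, a cyclin of resting cells that FOXO factors induce, was at 5.41, 5.40, 7.09 and 5.74, and 2 other probe sets gave -1.54 and -1.58. The combination value of CCNG2 lay below the floor. JMY, a p300-binding actin nucleator, was at 7.20, 6.92, 7.72 and 6.62.

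JUN (-0.77 at 16 h) also belongs here by its 16 h value. KLF7, another Krüppel-like factor, was at 5.76 in DMSO, 5.14 with AT9283, 6.12 with vemurafenib and 5.08 in the combination, so 3 of these 4 values lay below the floor. HOXB9 (5.12 in the combination) and the calmodulin-binding factor CAMTA2 (6.25) were 2.26-fold and 2.11-fold below vemurafenib. Of 15 genes of the FOXO and arrestin list at the floor 2 were 1.5-fold lower, where 0.956% of all genes at the floor were. They were CCNG2 and CITED2 (-0.62), and the list median was -0.21. TXNIP was at -0.25 and IRS2, the insulin receptor substrate, at -0.53. Heme oxygenase HMOX1 (-0.68) and the unfolded-protein factor XBP1 (-0.63) passed the rule as well, while HSPA5 was at -0.06 and the 19 ER chaperone and folding genes at the floor had a median of 0.02.

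The rest of the third group held metabolic and regulatory genes of smaller difference. NNMT, which methylates nicotinamide, was at 9.37 in DMSO, 9.10 with AT9283, 9.51 with vemurafenib and 8.80 in the combination. COQ8A, needed for coenzyme Q synthesis, was at 8.25, 7.82, 8.59 and 7.82, so the AT9283 and combination arrays were level. IRF2BP2, a transcriptional corepressor, was at 9.11, 9.11, 8.96 and 8.28. SEPSECS, the enzyme that completes selenocysteine on its tRNA, was at 6.62, 6.39, 7.49 and 6.79. The remaining members were KIF21B, CCDC28A, HECA, BLTP3A, PXK, CT83, ZFP69B, GTPBP2, PNPLA8, CILK1, NCOA7, DLGAP1-AS2 and LINC00662. In 19 of the 32 the combination had the lowest value among the arrays at 6 h, where its place below vemurafenib was set by the rule.

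Some lower genes also differed between the DMSO arrays of 6 h and 16 h. Of the 86 lower genes 13 (15.1%) differed by at least 1.5-fold there, against 2.14% of all genes at the floor, and of the 22 higher genes 4 did. CCNG2 was 1.74 higher in DMSO at 16 h than at 6 h, more than its difference with AT9283 added, and ECM2, PNRC1, ID2 and HBP1 were 0.96, 0.94, 0.86 and 0.78 higher. FST and JUN were both at -0.66 in that pair. The part of time in culture in these results was not tested.

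The 22 higher genes were fewer and smaller in size, between 0.59 and 0.85, with 8 of them below the floor under vemurafenib. No gene list gave more than 1 of them. In 11 of the 22 the combination was the highest among the arrays at 6 h, where its place above vemurafenib was set by the rule. SYTL2, a Rab27-binding protein of vesicle traffic, had the largest difference and was at 7.60 in DMSO, 7.73 with AT9283, 7.82 with vemurafenib and 8.67 in the combination, with 0.75 on its other probe set at the floor. NEFL, the light neurofilament chain, was at 9.35, 9.40, 10.07 and 10.71, and its other probe set at the floor gave 0.27.

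Of the 22 higher genes 5 (22.7%) were at least 2-fold lower with vemurafenib than with DMSO at 16 h, where 5.21% of all genes at the floor were. CCND1, TNFRSF10A and JMJD6 are among them, as are AJAP1 (-2.26 at 16 h) and LINC00326 (-4.68), listed further below. The place of the combination above vemurafenib was set by the rule. CCND1, the G1 cyclin that ERK signalling induces, was at 10.14 in DMSO, 10.17 with AT9283, 7.56 with vemurafenib and 8.15 in the combination (0.59, and 0.51 on its second probe set). TNFRSF10A, the TRAIL death receptor DR4, was at 8.61, 8.86, 6.22 and 6.91. JMJD6, a nuclear hydroxylase, was at 9.15, 9.17, 8.20 and 8.81. At 16 h the difference between vemurafenib and DMSO was -3.52, -2.25 and -1.10 for these 3 genes, and in the combination all 3 stayed below their DMSO level at 6 h.

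The others among the highest were NOVA1 (0.81) and SRRM2 (0.63), both RNA-processing factors, the cannabinoid receptor CNR1 (0.78), the RAP GTPase regulator SIPA1L2 (0.77), the junction protein AJAP1 (0.71), LRIG2 (0.67), the WNT receptor ligase ZNRF3 (0.65), the chaperone HSPA2 (0.63), CCNJ (0.61), GRK5 (0.61) and the coenzyme A enzyme PANK1 (0.59). SRRM2, a scaffold of nuclear speckles, was at 8.08 in DMSO, 8.62 with AT9283, 7.87 with vemurafenib and 8.50 in the combination, so both arrays with AT9283 were higher than their partners. Its other probe set at the floor differed by 0.20, and another, below the floor, by -0.10. NOVA1 was below the floor on the vemurafenib array (5.41), and a probe set of it at background differed by -0.02. TMEM64 (0.61), KLHL23 (0.61), TULP4 (0.60), ZCCHC2 (0.59), CRISPLD1 and the non-coding LINC00326 (0.64) made up the rest. The number of higher genes depends on the scaling and the floor, as 12 were left after quantile normalization and 7 with a floor of log2 7.

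**Figure D3:**
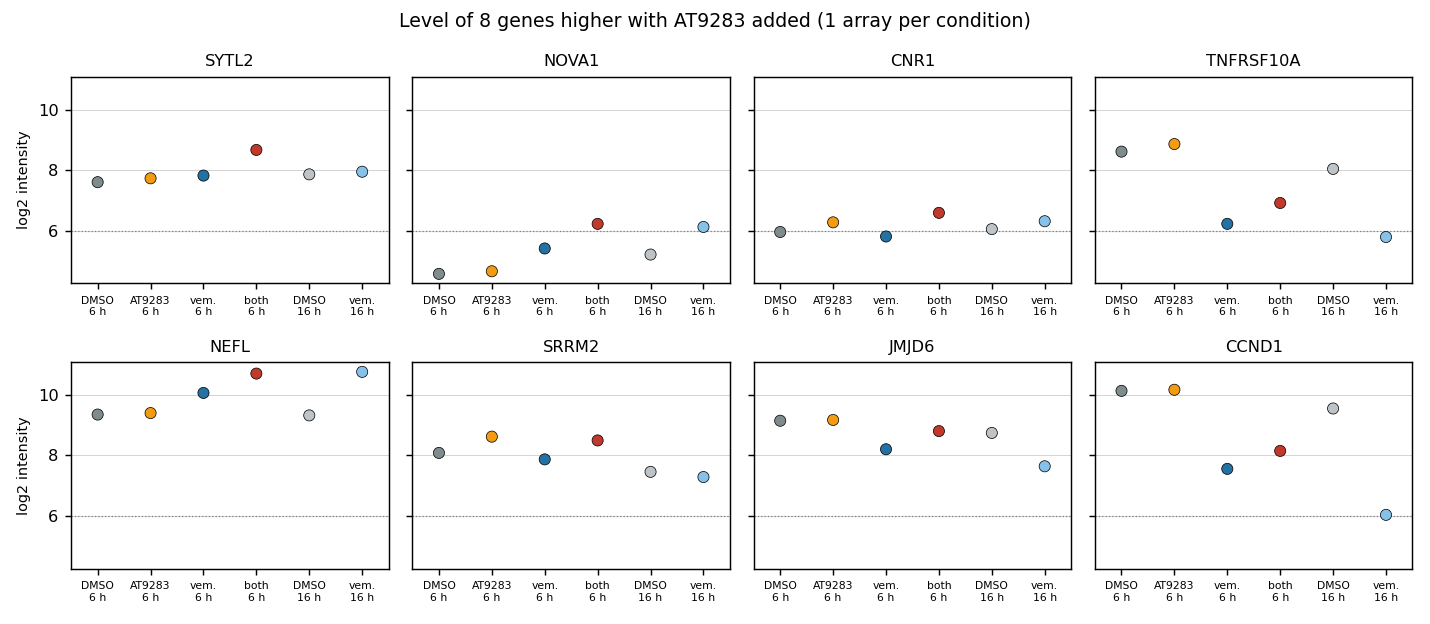
Log2 intensity of 8 genes higher with AT9283 added, on the 6 arrays (1 point per array; the dotted line is the floor of log2 6). SYTL2, NOVA1, CNR1 and NEFL are highest on the combination array among the arrays at 6 h, SRRM2 is high on both AT9283 arrays, and TNFRSF10A, JMJD6 and CCND1 lie between vemurafenib and DMSO.

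AT9283 without vemurafenib offers a view of the same genes on arrays that are not shared. Of the 86 lower genes 54 (62.8%) were also below DMSO with AT9283 alone, where 43.9% of all genes at the floor were. The ATF4 list members among them split as 10 below and 14 above, with a median of 0.02. The 62 other genes split as 44 below and 18 above, with a median of -0.14. Of the 22 higher genes 19 (86.4%) were above DMSO with AT9283 alone, where 55.8% of all genes at the floor were, with a median of 0.16. The sizes without vemurafenib were mostly small, and 4 of the 86 lower genes and 0 of the 22 higher genes reached 1.5-fold with AT9283 alone. Those 4 were PNRC1 (-0.74), FST (-0.69), UBALD2 (-0.67) and KLF7 (-0.62). The floor was not applied to the AT9283 and DMSO arrays in these counts. KLF7 lay below it on both (5.14 and 5.76). So did ATF4 list members such as INHBE (2.04 and 2.49) and RAB39B (3.73 and 4.19), whose signs rest on values near background.

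**Figure D4:**
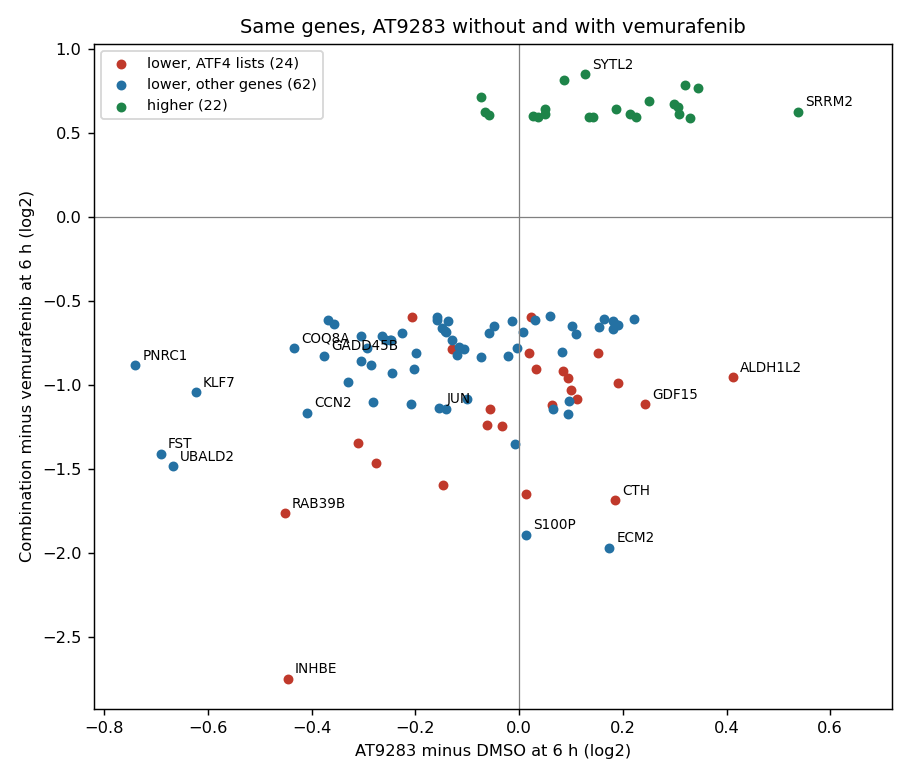
Difference of the 108 genes past 1.5-fold with vemurafenib present (vertical axis, combination minus vemurafenib, log2) against the AT9283 difference without vemurafenib (horizontal axis, AT9283 minus DMSO, log2). The 24 ATF4 list members straddle 0 on the horizontal axis, 44 of the 62 other lower genes lie left of it and 19 of the 22 higher genes lie right of it. The floor was not applied to the arrays of the horizontal axis.

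Lists of processes that AT9283 is known to hit, Aurora, mitosis and JAK-STAT, held 0 genes past the rule. Among all genes at the floor 0.956% were lower and 0.244% higher, so lists this short would hold few or none. Kinase activity was not measured. Of 9 genes of the Aurora kinases and their complex at the floor 0 passed 1.5-fold in either direction, with a median of 0.20, AURKA at 0.36 and AURKB at -0.01. Among 35 mitosis genes 0 passed, with a median of 0.09, and PLK1, CCNB1 and FAM83D at 0.16, 0.22 and 0.44. The lowest was the phosphatase CDC25C (-0.51). DNA replication (28 genes) had a median of 0.02 with 0 past the rule. Of 17 p53 target genes 2 were lower, where 0.956% of all genes at the floor were. They were PMAIP1 and the ATF4 list member SESN2 (-0.81), and the list median was 0.03.

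For the JAK-STAT list 0 of 13 genes at the floor passed, with a median of 0.07, JAK2 at 0.13, STAT3 at 0.09 and the feedback inhibitor CISH at 0.23. Other probe sets at the floor gave 0.19 and -0.09 for STAT3 and -0.15 for CISH, so neither gene had 1 direction. The feedback inhibitor SOCS3 (4.48 under vemurafenib, 4.58 in the combination) and the kinase gene PIM1 (5.73 and 5.32) lay below the floor on both arrays. Interferon-stimulated genes had a median of -0.07, with 0 of 16 past the rule and 14 of 16 below 0, against 42.0% of all genes at the floor below 0. For both lists 0 past the rule is near the share of all genes, 0.956% lower and 0.244% higher.

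ERK output genes are the readout of the cascade that vemurafenib blocks, and those at the floor were mostly slightly higher. Only 13 of 23 measured lay at the floor. CCND1 was the 1 past 1.5-fold, where 0.244% of all genes at the floor were higher. Of the 13, 11 were above 0, where 5203 of 8999 genes at the floor were. The median was 0.16, with ETV5 at 0.32, SPHK1 at 0.37 and DUSP4 at -0.24. Members below the floor went both ways, among them EPHA4 (-0.61), DUSP5 (-0.32), SPRY4 (0.25) and LIF (0.24). DUSP6 was at 9.50 in DMSO, 9.35 with AT9283, 4.28 with vemurafenib and 4.39 in the combination, below the floor on both arrays of the comparison. MYC was also below the floor on both, at 5.31 and 4.36, a difference of -0.95 that the rule does not count. Cytosolic heat shock genes had a median of 0.11 with 11 of 12 above 0, DNAJB1 (0.54) the highest. Ribosome biogenesis genes had a median of 0.10 with 13 of 16 above 0. Beside both stand the same 5203 of 8999 genes above 0, and 0 of either list passed the rule. NRF2 targets (16 genes) had a median of -0.04 with 2 lower, HMOX1 and SLC7A11 (-1.08), the cystine transporter that is also on the ATF4 lists. Among all genes at the floor 0.956% were lower. Cholesterol synthesis (13 genes) had a median of 0.15, glycolysis and hypoxia (24) -0.01, lysosome and autophagy (21) -0.05 and pigment cell differentiation (9) 0.00, with 0 past the rule in each. The undifferentiated melanoma list (14) had 2 lower, JUN and IGFBP3, again beside 0.956% of all genes at the floor, and a median of -0.06.

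**Figure D5:**
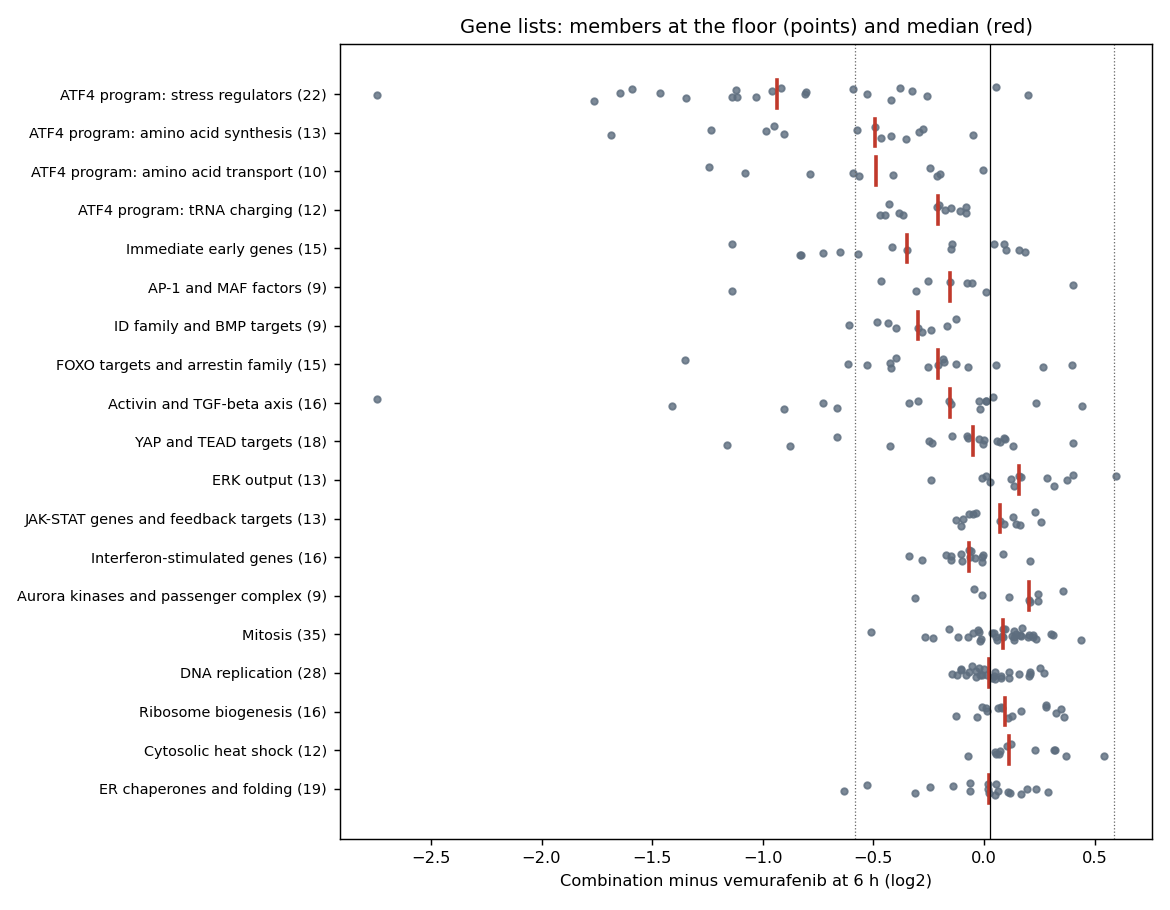
Difference between the combination and vemurafenib (log2, horizontal axis) of the members at the floor of 19 gene lists (points, number in brackets) with the list median in red; the black line is the median of all genes at the floor (0.03) and dotted lines mark 1.5-fold. The 4 ATF4 lists and the immediate early, ID and FOXO lists have medians from -0.94 to -0.21, while the Aurora, mitosis, DNA replication and JAK-STAT lists centre between 0.02 and 0.20.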

How the data were processed

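RNA of each of the 6 samples was measured on 1 Affymetrix array. The deposited intensity values are probe set intensities on a linear scale made with RMA, per the submitters' processing notes; for RMA's version and for joint or separate normalization of the arrays the answer was not given in the sources used here. The table held 54675 probe sets, of which 41097 had 1 gene symbol in the platform annotation, 1801 had several and 11777 had none; the last 2 kinds were not named, and 41043 symbols equalled those of RefSeq.

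In 6 blocks, 1118 probe sets (2.05%) carried 6 h values of another row. Across them the correlation between both DMSO arrays was 0.455 as deposited and 0.984 with the order restored. These rows and 62 control probe sets were left out. Across 443 of them, the DMSO 6 h level had an r of 0.017 with another probe set of the same gene as deposited and 0.186 restored.

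Values were converted to log2, with 1 probe set per gene (highest mean over the arrays), in Python 3.11.15 with pandas 2.3.3. No statistical test was run, since each group is 1 array. The script that applies the size rule was checked on simulated data with known changes, which gives no error rate for the rule on these arrays. Named genes were all those 2-fold changed, the 20 lowest outside the ATF4 lists, the 25 highest, up to 4 per list and direction, and 23 fixed genes; non-coding and uncharacterised symbols were outside the rule. Further genes are named to account for members or lists, after their values were seen. The members and lists were chosen with earlier results of these data known. Alternatives were other row handling, scalings, floors, probe set choices and a pseudocount.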

Additional observations from a re-analysis of the deposited data

Results flagged for a closer look

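Among the 29 genes at least 2-fold lower in the combination than under vemurafenib, 3 were higher with AT9283 alone than with DMSO by a set margin. The margin was the SD of AT9283 differences across genes (0.13). The share of all genes past that margin was not counted, and the upper quartile of all AT9283 differences was 0.09. CTH differed by -1.69 with vemurafenib present and 0.19 without it, ECM2 by -1.97 and 0.17, and GDF15 by -1.12 and 0.24. Without vemurafenib ECM2 lay below the floor of log2 6 on both arrays (3.73 in DMSO and 3.90 with AT9283), GDF15 was at 5.86 and 6.10, and CTH at 6.08 and 6.27. Another CTH probe set gave 0.12 for AT9283 against DMSO, short of the margin, and other GDF15 probe sets, below the floor, gave -0.21 and 0.31. The difference between the 2 settings was not tested, because each rests on single arrays.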

How the results depend on the processing

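The count of genes at least 2-fold lower stayed between 20 and 36 over 10 alternatives. That of 2-fold higher genes was 0 except for 1 without a floor (ZNF165, below the floor on both arrays) and 1 without shared or cross-hybridizing probe sets (MALAT1). The 1.5-fold lower count was 172 with no floor and 57 with the mean over probe sets. The 1.5-fold higher count was 12 after quantile normalization, 7 with a floor of log2 7, 44 with a floor of log2 5, 67 with no floor, 8 with the mean over probe sets and 11 with 16 added to the intensity. The share of higher genes among those past 1.5-fold was 20.4%, 9.72% with the floor of log2 7, 11.1% after quantile normalization, 22.6% with median centring, 27.7% with the floor of log2 5 and 28.0% with no floor.

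Of the 1.5-fold higher genes, those above 0 with AT9283 alone numbered 10, 7, 39, 55, 6 and 10 in the order of these 6 alternatives. Those 2-fold lower with vemurafenib at 16 h numbered 3 (quantile), 2 (floor of log2 7), 8 (no floor), 1 (mean) and 2 (16 added). Of the lower genes, 109 were below 0 with AT9283 alone with no floor, and 7 were 2-fold lower at 16 h without shared probe sets. Without shared probe sets the list medians were -0.37 for tRNA charging, -0.14 for immediate early genes, 0.0598 for the Aurora complex, -0.30 for activin and TGF-β and 0.0771 for the undifferentiated state, and NOVA1 (-0.0235), SRRM2 (-0.10) and ZCCHC2 (-0.0205) changed sign on probe sets below the floor. JUN and KLF6 were then at -0.56, HBP1 at -0.36, TSC22D3 at -0.13, TGIF1 at -0.12 and GADD45B at -0.03. Of these only the KLF6 probe set lay at the floor, so the other values are no measure of a smaller difference. Of 617 values of named genes over the alternatives 536 moved by less than the SD of AT9283 differences across genes (0.13), 78 moved further without a change of sign and 3 changed sign. No paired analysis was possible because each condition has 1 array and the labels carry no replicate numbers. Single arrays and values near background limit the size of each difference.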

Other observations

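MALAT1, a long non-coding RNA of nuclear speckles, was chosen after its values were seen. It has 12 probe sets here. Their differences for the combination against vemurafenib ran from -0.04 to 1.71 with a median of 0.49, and for AT9283 against DMSO from 0.02 to 0.81 with a median of 0.43, where all 12 were above 0. The probe set with the highest mean, which the gene counts use, had 0.18 in the combination, so the gene did not enter the higher genes. Probe sets of 1 transcript on 1 array are not replicates.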
